A study of Homo sapiens with 12 samples.

Results

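The genes described here are 10 mRNAs classed as having a 5′ terminal oligopyrimidine (TOP) tract, none of which encodes a ribosomal protein. Most encode parts of the translation machinery or its helpers. The 10 are EEF1A1, EEF1B2, EEF1D, EEF1G, EEF2, TPT1, PABPC1, RACK1, NACA and NAP1L1. They were chosen by name out of 19027 gene symbols on 19038 transcripts, and each has 1 transcript in the count tables. No value entered the rule, but earlier results of these data were known when it was set. All 10 passed the filter on low counts in both assays. The samples were xenografts of 22Rv1, a human prostate cancer cell line, grown under the skin of male NSG mice, an immunodeficient strain in which host stroma still enters the tumour. The mice were 6 to 8 weeks old when the cells were implanted and were treated when tumours reached 70 to 100 mm3. Every mouse received an intraperitoneal injection in 5% dextrose, of either zotatifin at 0.3 mg/kg or the dextrose vehicle alone. Tumours were frozen 6 h later. Zotatifin inhibits eIF4A, the helicase that opens mRNA leaders ahead of the scanning ribosome. From each tumour lysate, ribosome footprints of 24 to 34 nt from monosome fractions (RPF) and total RNA were sequenced, giving 4 groups of 3 libraries (vehicle or zotatifin, footprints or RNA) and 12 libraries in all. The labels call the replicates biological, and whether each tumour came from a separate mouse is not stated.

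A TOP mRNA begins with a cytosine at its cap, followed by an unbroken stretch of pyrimidines. The stretch lets the cap-binding protein LARP1 hold such mRNAs out of translation when the kinase mTORC1 is off, and releases them together when it is on. Ribosomal proteins and the elongation factors are the best known TOP mRNAs, and growing tumours make large amounts of both.

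The 30 bases around the annotated start (10 before it and 20 from it) were read for the feature by which these mRNAs are classed. They are given for the members with an entry in RefSeq's promoter table (8 of 10 matched by symbol, GRCh38.p14). They are written 5′ to 3′ on the gene's strand, and capitals mark the first run of C and T at or just after the annotated start.
EEF1A1, minus strand, chr6:73521013-73521042: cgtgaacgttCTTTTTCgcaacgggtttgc
EEF2, minus strand, chr19:3985444-3985473: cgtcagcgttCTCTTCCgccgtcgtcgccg
EEF1B2, plus strand, chr2:206159885-206159914: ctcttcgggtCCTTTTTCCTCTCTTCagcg
EEF1G, minus strand, chr11:62573872-62573901: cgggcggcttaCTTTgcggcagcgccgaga
RACK1, minus strand, chr5:181243887-181243916: gcttttctctCTCTCTTTCactgcaaggcg
NACA, minus strand, chr12:56725280-56725309: ctcgctcggtCTTTCTgccgccatcttggt
NAP1L1, minus strand, chr12:76084666-76084695: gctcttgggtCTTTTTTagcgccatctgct
TPT1, minus strand, chr13:45341164-45341193: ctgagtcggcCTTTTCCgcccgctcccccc
In 7 of the 8 members the annotated start was a C followed by at least 4 further C or T. From that start the run held 6 bases in NACA, 7 in EEF1A1, EEF2, NAP1L1 and TPT1, 9 in RACK1 and 16 in EEF1B2. EEF1G has its annotated start on an A, with a run of 4 that begins on the next base. EEF1B2 has a further annotated start upstream, which begins with an A and does not hold the pattern. The same pattern, read on the gene's strand at the annotated start only, stood in 4.07% of all 35116 promoter entries of the table. It was found in 7.81% of the 7632 genes tested for translational efficiency that had an entry, and in 73.1% of the 67 cytosolic ribosomal proteins among them.

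Total counts ran from 1592316 to 2013968 in the vehicle footprint libraries, from 838135 to 1540867 in those of zotatifin, and from 5761921 to 8153674 in the RNA libraries, so footprint values rest on fewer reads with zotatifin. EEF1D, the member with the fewest footprint counts, had 265 to 560 per library. Levels are CPM, which are counts divided by the library's size after TMM scaling, and a change common to every mRNA would not show in them. The 7 prostate markers given here, KLK3 and HOXB13 among them, all had counts in both assays. Marker sums are CPM of all counts, without TMM, and for prostate they ran from 507 to 538 CPM with vehicle and from 618 to 726 CPM with zotatifin in footprints, and overlapped in RNA (1536 to 1699 CPM and 1487 to 1800.2 CPM). All 10 fibroblast markers looked up had counts as well, and their summed footprints ran from 454 to 788 CPM with vehicle and from 141 to 255 CPM with zotatifin. Summed footprints of 7 myeloid markers, of which CD14 was at 0, ran from 73.2 to 339 CPM and from 35.0 to 62.0 CPM. The sums of 5 endothelial markers were low and overlapped (2.73 to 4.40 CPM and 0 to 3.58 CPM). In footprints the fibroblast and myeloid sums were thus lower, and the prostate sum higher, in every zotatifin library than in any vehicle one. In RNA the fibroblast sums were apart as well (213 to 368 CPM and 70.3 to 133 CPM), and the myeloid sums overlapped (16.0 to 55.3 CPM and 10.98 to 20.0 CPM). The part of these cells in the members' values was not tested. In bulk tumours, fewer cells of a type and less RNA per cell cannot be told apart. Footprint sums also hold any change of footprints per RNA, which was not tested for the sums. The host's stroma is of mouse, and the processing notes name hg38. How many of the marker reads came from mouse cells was not tested. Of the libraries, those of zotatifin tumour 1 and vehicle tumour 1 stood apart for these genes, as described with translational efficiency.

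Translational efficiency (TE) is the log2 ratio of footprint CPM to RNA CPM within a tumour. With vehicle, 9 of the 10 members lay below the median of all 9454 genes tested (−0.19), and the median of the members was −1.14. TPT1, the translationally controlled tumour protein, had the lowest TE of the 10, at −2.44 ± 0.11 (SD, n = 3), which is the 4.62 percentile of all genes. EEF1G followed at −2.20 ± 0.09 (6.55 percentile) and EEF2 at −2.13 ± 0.24 (7.18 percentile). At the upper end, the histone chaperone NAP1L1 had 0.41 ± 0.10 (68.6 percentile), or 1.33 footprint CPM for each RNA CPM. The ranges of the 3 vehicle tumours overlapped between EEF1G and EEF2, between EEF1D and RACK1, and among NACA, EEF1A1 and EEF1B2. The other neighbours in this order, TPT1 and EEF1G, EEF2 and PABPC1, PABPC1 and EEF1D, RACK1 and NACA, and EEF1B2 and NAP1L1, did not overlap. The places of PABPC1 and NACA in this order are uncertain. Near-identical copies held a larger share of the pair's counts in footprints than in RNA, as described below. TE of the 83 cytosolic ribosomal proteins ran from −3.49 to 2.05 with a median of −0.48. Which part of each transcript was counted is not given in the sources used here, so TE of different genes can also differ through the regions counted.

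**Figure D1:**
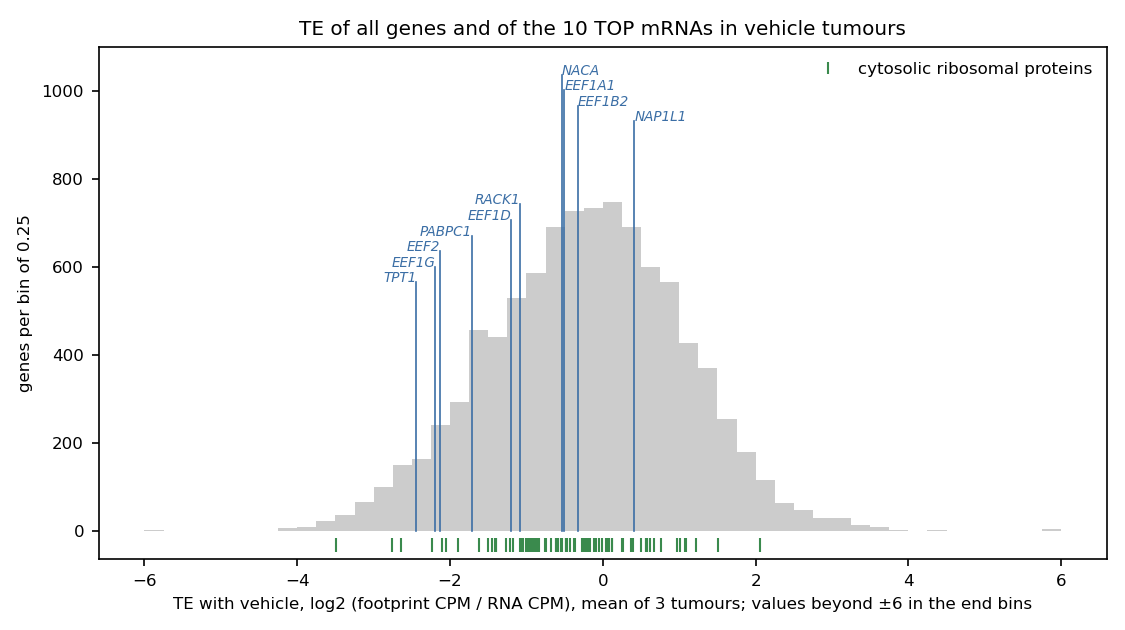
Number of genes (y axis) by TE with vehicle (x axis, log2 ratio of footprint to RNA CPM, mean of 3 tumours) for the 9454 genes tested. Blue lines mark the 10 TOP mRNAs, from TPT1 at −2.44 to NAP1L1 at 0.41, and green ticks the 83 cytosolic ribosomal proteins. Only NAP1L1 of the 10 lies above the median of all genes.

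EEF2, which moves the ribosome along the mRNA after each peptide bond (ENST00000309311, chromosome 19, 3976056 to 3985463, GRCh38.p14), was the member whose footprints rose. They measured 1229, 1367 and 1472 CPM in the vehicle tumours and 2116, 1723 and 1668 CPM in the zotatifin tumours. Every zotatifin library was higher than every vehicle library, and zotatifin tumour 1 was the highest. The log2 change was 0.44 ± 0.11 (SE; 1.35-fold, 95% interval 1.16 to 1.58), with an adjusted p of 0.0135 by edgeR's quasi-likelihood test. Across all genes, 7.14% were called in footprints (3.22% rose and 3.92% fell). The adjusted p was 0.129 when vehicle library 1 was left out and 0.110 when zotatifin library 1 was, so the call rests on both. RNA of EEF2 measured 6486, 5433 and 5857 CPM with vehicle and 5469.5, 5419 and 6147 CPM with zotatifin. Its RNA groups overlapped and the change missed the threshold (−0.06 ± 0.13, edgeR adjusted p = 0.848).

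TE of EEF2 was −2.40, −1.99 and −1.99 in the vehicle tumours and −1.37, −1.65 and −1.88 in the zotatifin tumours, with no overlap. The change of TE, fitted as an interaction between treatment and assay, was 0.53 ± 0.17 and missed the threshold (edgeR adjusted p = 0.105). The replicate numbers tie footprints and RNA of the same tumour, and with the tumour as a block the change was 0.52 ± 0.14 with an adjusted p of 0.00948. The block also moved the background, from 1.69% of all genes called (0.476% rose and 1.22% fell) to 8.66% (3.62% rose and 5.05% fell). The blocked call was lost without vehicle tumour 1 (adjusted p = 0.128) or zotatifin tumour 1 (adjusted p = 0.0765). Without both tumours numbered 1 the blocked change was 0.25 ± 0.12 (adjusted p = 0.317), and that of footprints 0.25 ± 0.13 (adjusted p = 0.399). Both were left out after their values were seen at opposite ends, so a smaller change follows from the choice. With them out, fewer genes were called in all, 292 in blocked TE (819 with every tumour) and 108 in footprints (681 with every tumour).

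PABPC1, the cytoplasmic protein that coats the poly(A) tail and joins it to eIF4G at the cap (ENST00000318607, chromosome 8, 100702916 to 100722088), had less RNA in every zotatifin library and footprints that overlapped between the treatments. Its RNA measured 1861, 1632 and 1628 CPM with vehicle and 1375, 1277 and 1547 CPM with zotatifin. All 3 zotatifin libraries were below the vehicle libraries, but the change of −0.29 ± 0.13 missed the threshold (edgeR adjusted p = 0.232). Footprints measured 477, 501 and 588 CPM against 671, 517 and 594 CPM, which overlap, and the change was 0.19 ± 0.11 (edgeR adjusted p = 0.317).

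TE of PABPC1 was −1.96, −1.71 and −1.47 with vehicle and −1.04, −1.30 and −1.38 with zotatifin, again with no overlap. Its change was close to that of EEF2. It came to 0.51 ± 0.17 without the block (edgeR adjusted p = 0.127) and to 0.50 ± 0.13 with it (adjusted p = 0.00685). Without vehicle tumour 1 or zotatifin tumour 1 the blocked call was lost (adjusted p = 0.104 and 0.0663), and without both the change was 0.27 ± 0.13 (adjusted p = 0.296). As for EEF2, these tumours stood at opposite ends, so a smaller change follows from leaving them out. No other member was called in TE in edgeR, with or without the block. In DESeq2, run without a block, EEF2 was the 1 member called (0.53, adjusted p = 0.043), against 2.43% of all genes called by that method.

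**Figure D2:**
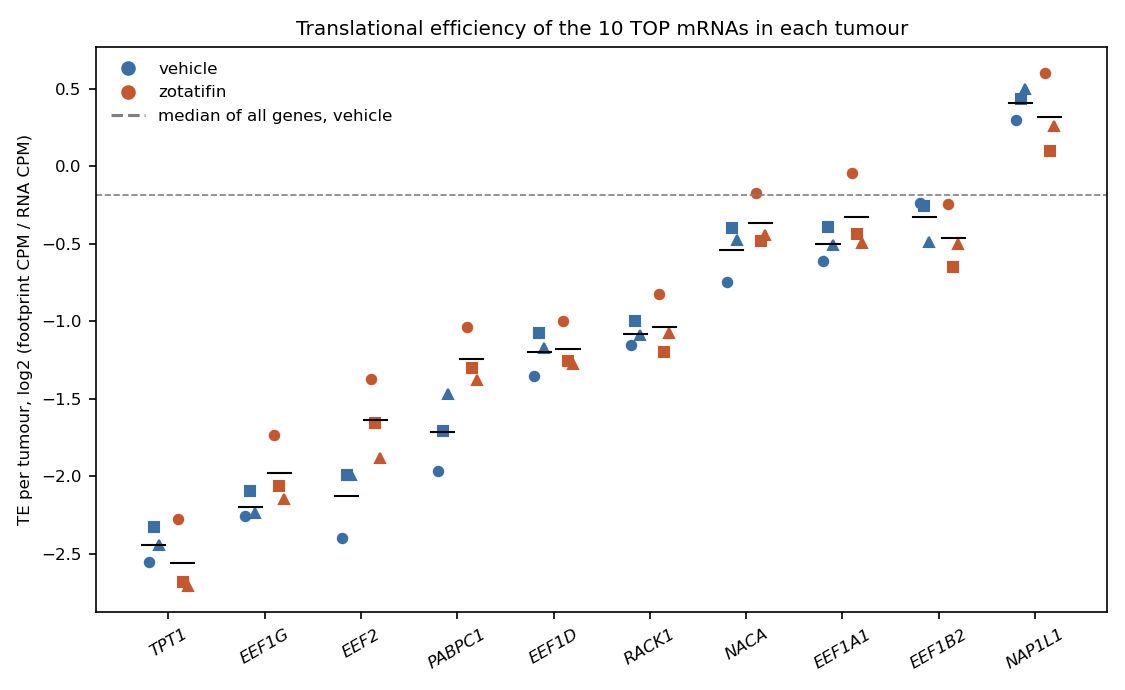
TE of each TOP mRNA in each tumour (y axis, log2 ratio of footprint to RNA CPM), ordered by the vehicle mean; blue is vehicle and orange zotatifin, with circles, squares and triangles for tumours 1, 2 and 3 of each treatment and bars for means. The groups lie apart for EEF2 and PABPC1 only, and the circle of zotatifin tumour 1 is the highest of its group for all 10 genes. The dashed line is the vehicle median of all genes, −0.19.

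For the members, the tumours numbered 1 stood at opposite ends. Zotatifin tumour 1 had the highest TE of its 3 tumours in 10 of 10 members, and vehicle tumour 1 the lowest of its 3 in 9 of 10. The median TE of the members was −1.25, −1.04 and −1.13 in vehicle tumours 1, 2 and 3 and −0.91, −1.23 and −1.18 in zotatifin tumours 1, 2 and 3. Ribosomal proteins, encoded by the other TOP mRNAs, were also highest in zotatifin tumour 1 (median −0.19, against −0.59 and −0.57 in zotatifin tumours 2 and 3). With vehicle their medians were −0.52, −0.36 and −0.54 in tumours 1, 2 and 3, so vehicle tumour 1 was not the lowest for them. The median of all genes ran only from −0.25 to −0.17 over the 6 tumours. The number does not mark a shared mouse or day between treatments as far as the labels say.

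The other elongation factors belong to the eEF1 complex. EEF1A1 brings aminoacyl-tRNA to the ribosome (ENST00000316292, chromosome 6, 73515750 to 73521032) and took 0.607% ± 0.042 of all footprint counts with vehicle and 0.700% ± 0.066 with zotatifin (SD, n = 3). Its footprints measured 5704, 6656 and 5969.7 CPM with vehicle and 7846, 7007 and 6431 CPM with zotatifin. The groups overlapped, since zotatifin tumour 3 fell below vehicle tumour 2. The change of 0.22 ± 0.11 missed the threshold (edgeR adjusted p = 0.247, 95% interval −0.01 to 0.44). RNA measured 8723, 8718 and 8491 CPM against 8075, 9471 and 9060.3 CPM, and changed by 0.04 ± 0.13 (edgeR adjusted p = 0.910).

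EEF1B2, EEF1D and EEF1G are the subunits that reload EEF1A1 with GTP, the first 2 as exchange factors and EEF1G as the scaffold that holds them. EEF1B2 (ENST00000236957, chromosome 2, 206159609 to 206162928) had footprints of 611, 543 and 515 CPM with vehicle and 509, 490.5 and 466 CPM with zotatifin. The zotatifin libraries all lay below the vehicle libraries, by a small margin, and the change was −0.19 ± 0.10 (edgeR adjusted p = 0.281). EEF1D (ENST00000423316, chromosome 8, 143579728 to 143597415) had 275, 303 and 295 CPM against 332, 325 and 294 CPM, with a change of 0.12 ± 0.10 (edgeR adjusted p = 0.541). EEF1G (ENST00000329251, chromosome 11, 62559596 to 62573891) had 529.8, 537 and 504 CPM against 646, 609 and 525 CPM, with a change of 0.18 ± 0.10 (edgeR adjusted p = 0.329). Groups overlapped for both EEF1D and EEF1G. The estimates for these 3 subunits therefore pointed in different directions, but none of them passed the test.

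RNA of the 3 subunits overlapped between the treatments. It ran from 649 to 723 CPM with vehicle and 602 to 770.4 CPM with zotatifin for EEF1B2, from 638 to 704 CPM and 663 to 775 CPM for EEF1D, and from 2299 to 2533 CPM and 2143 to 2547 CPM for EEF1G. The RNA changes were −0.04, 0.10 and −0.04 (SE 0.12 to 0.13). TE changed by −0.11 ± 0.16 for EEF1B2, 0.05 ± 0.15 for EEF1D and 0.25 ± 0.16 for EEF1G (edgeR adjusted p from 0.483 to 0.907). TE of EEF1G was −2.26, −2.10 and −2.24 with vehicle against −1.73, −2.06 and −2.14 with zotatifin, so that zotatifin tumours 1 and 2 lay above the vehicle range, the latter barely, and tumour 3 within it. With the block its adjusted p was 0.237.

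**Figure D3:**
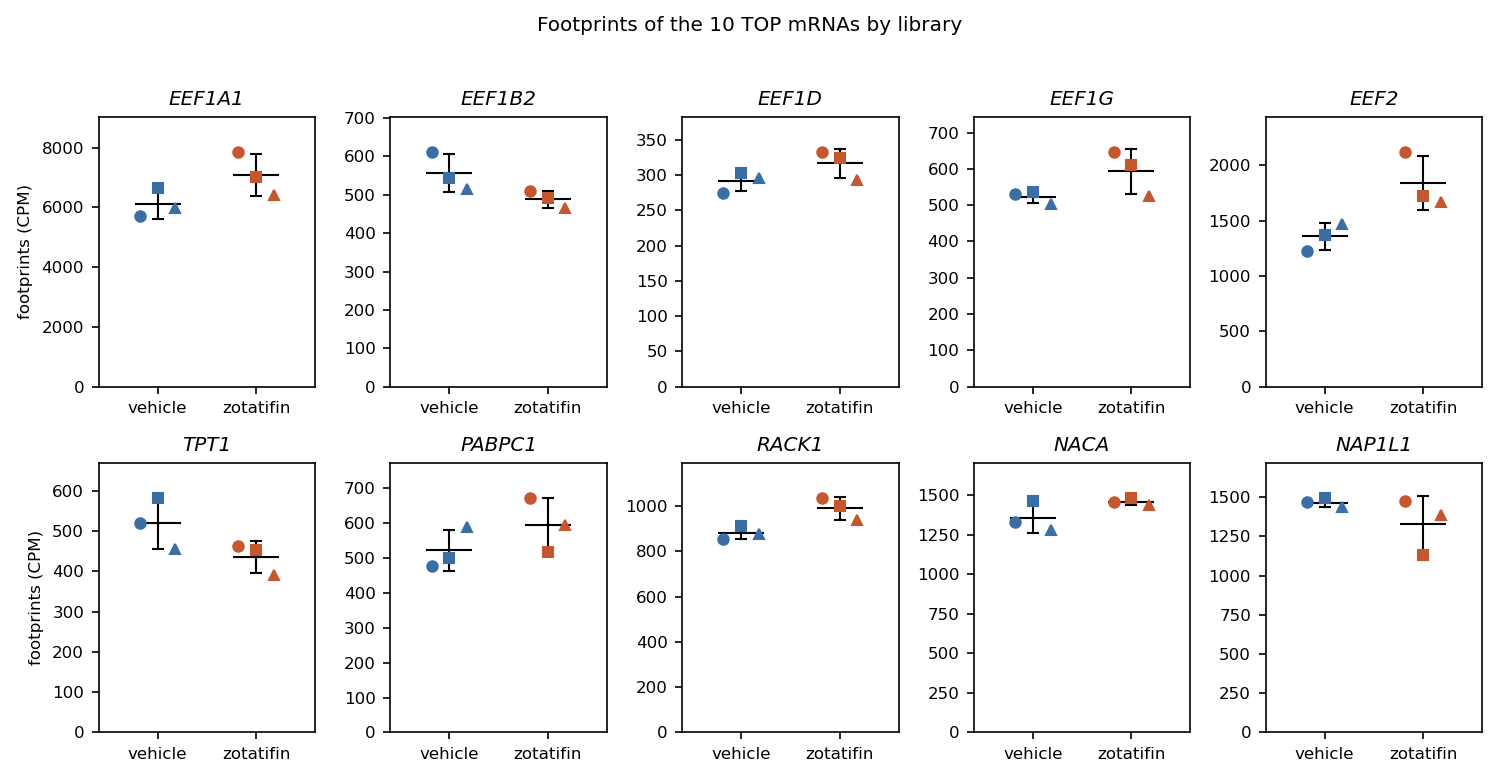
Footprints (y axes, TMM-scaled CPM, each from 0) of the 10 TOP mRNAs in vehicle (blue) and zotatifin (orange) tumours, with circles, squares and triangles for tumours 1, 2 and 3 of each treatment; bars are the mean and SD of 3 libraries. The treatments lie apart for EEF2 and RACK1, higher with zotatifin, and for EEF1B2, lower with zotatifin, and overlap for the other 7.

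RACK1 is a scaffold protein on the head of the small ribosomal subunit (ENST00000512805, chromosome 5, 181236897 to 181243906). Its footprints measured 855, 911 and 878 CPM with vehicle and 1034, 998 and 937 CPM with zotatifin. The groups did not overlap, yet the change of 0.17 ± 0.10 missed the threshold (edgeR adjusted p = 0.337). RNA measured 1904, 1817 and 1864 CPM against 1828, 2294 and 1977 CPM (0.13 ± 0.13, edgeR adjusted p = 0.630), and TE changed by 0.07 ± 0.15. NACA is the alpha subunit of the complex that meets nascent chains at the ribosome's exit tunnel (ENST00000550952, chromosome 12, 56712427 to 56725299). Its footprints measured 1328, 1464 and 1282 CPM against 1459, 1480.1 and 1437 CPM and overlapped, with a change of 0.10 ± 0.10 (edgeR adjusted p = 0.593). RNA of NACA ran from 1784 to 2228 CPM with vehicle and from 1644 to 2070.3 CPM with zotatifin, and its TE changed by 0.20 ± 0.16 (edgeR adjusted p = 0.596).

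TPT1 (ENST00000616577, chromosome 13, 45333471 to 45341183) had the lowest estimate in footprints among the members. It measured 520.4, 581 and 454 CPM with vehicle and 463, 454 and 390.0 CPM with zotatifin. Zotatifin tumour 1 reached into the vehicle range, and the change was −0.26 ± 0.11 (0.837-fold, 95% interval 0.717 to 0.977, edgeR adjusted p = 0.156). RNA of TPT1 measured 3056, 2914 and 2471 CPM against 2244, 2913 and 2551 CPM (−0.13 ± 0.14, edgeR adjusted p = 0.643), and its TE changed by −0.09 ± 0.18. NAP1L1 (ENST00000261182, chromosome 12, 76036585 to 76084685) had footprints of 1467, 1493 and 1435 CPM against 1477, 1131 and 1383 CPM. Zotatifin tumour 2 was lower than the other 5 libraries, and the change was −0.14 ± 0.11 (edgeR adjusted p = 0.486). RNA of NAP1L1 ran from 1017 to 1190.2 CPM with vehicle and from 971 to 1155 CPM with zotatifin, and its TE changed by −0.05 ± 0.16.

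**Figure D4:**
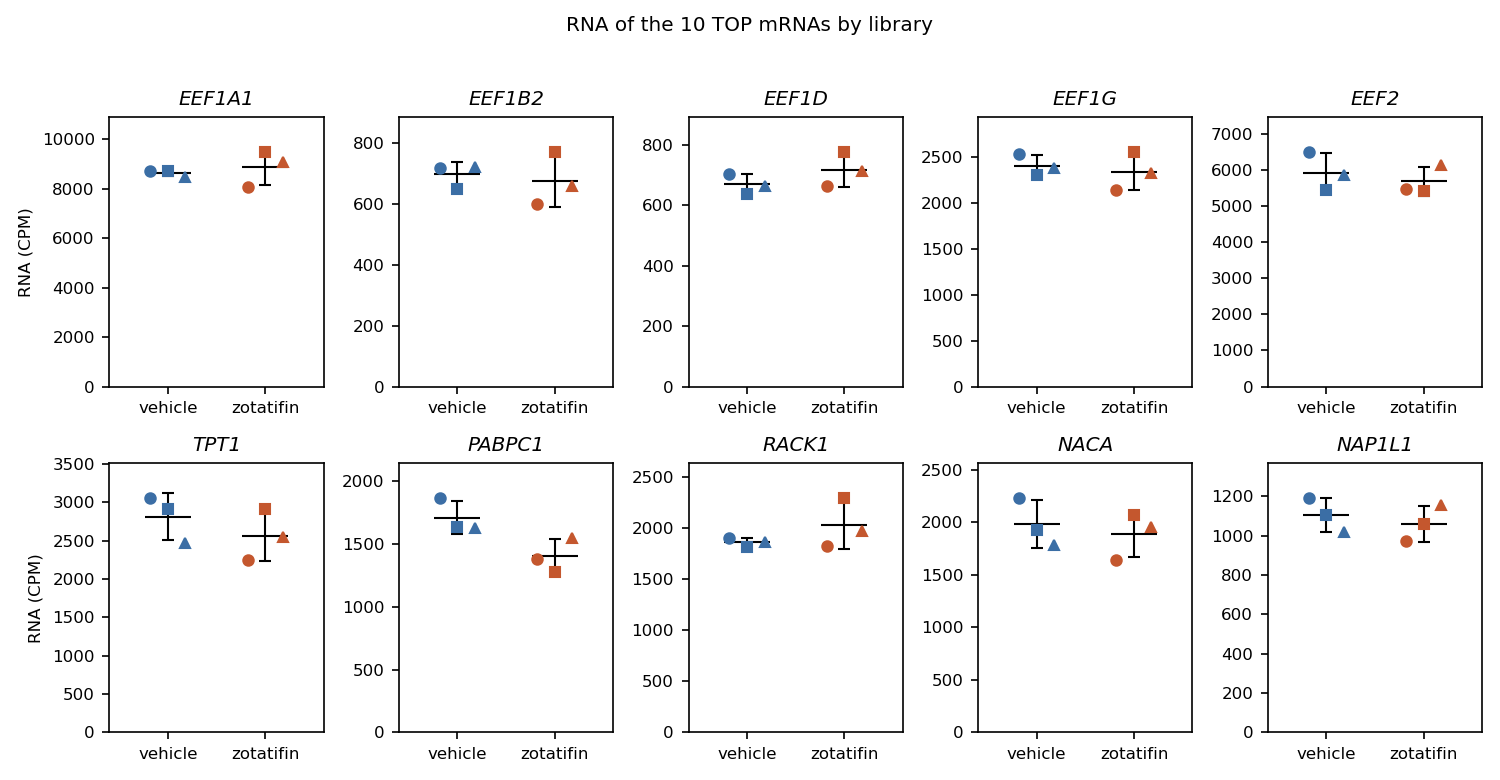
RNA (y axes, TMM-scaled CPM, each from 0) of the 10 TOP mRNAs, drawn as for footprints. The 3 zotatifin libraries lie below the 3 vehicle libraries for PABPC1, and the groups overlap for the other 9.

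Over all 10 members, 1 rose and 0 fell in footprints, 0 changed in RNA and 0 changed in TE without the block. RNA calls made up 1.72% of all genes (0.808% rose and 0.907% fell). At an unadjusted p under 0.05 in edgeR, 2 members passed in footprints (EEF2 up and TPT1 down), beside 22.1% of all genes. In RNA 1 passed (PABPC1, down), beside 18.3%, and in TE 2 passed (EEF2 and PABPC1, up), beside 15.3%. Estimates were above 0 for 7 members in footprints, 3 in RNA and 7 in TE. The median log2 change was 0.14 in footprints, −0.05 in RNA and 0.14 in TE, beside 0.00 (n = 9544), 0.00 (n = 13118) and 0.02 (n = 9454) over all genes tested. The members' medians leaned on the tumours numbered 1. Without zotatifin tumour 1 they were 0.098 in footprints, 0.018 in RNA and 0.0098 in TE, so that the RNA median turned sign. Without vehicle tumour 1 they were 0.11, −0.00048 and 0.056, and over all single tumours left out the TE median reached 0.21. For cytosolic ribosomal proteins the medians were 0.10 (84 tested), 0.11 (83) and 0.04 (83). In footprints 3 of 10 members (30%) did not overlap between the treatments, against 26.4% of all genes. The shares were 10% against 23.1% in RNA and 20% against 26.4% in TE, so that the members were near or below the background in each. In sum the members took 1.35% ± 0.05 of footprint counts with vehicle and 1.49% ± 0.12 with zotatifin, and 2.77% ± 0.13 and 2.72% ± 0.16 of RNA counts (SD, n = 3).

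**Figure D5:**
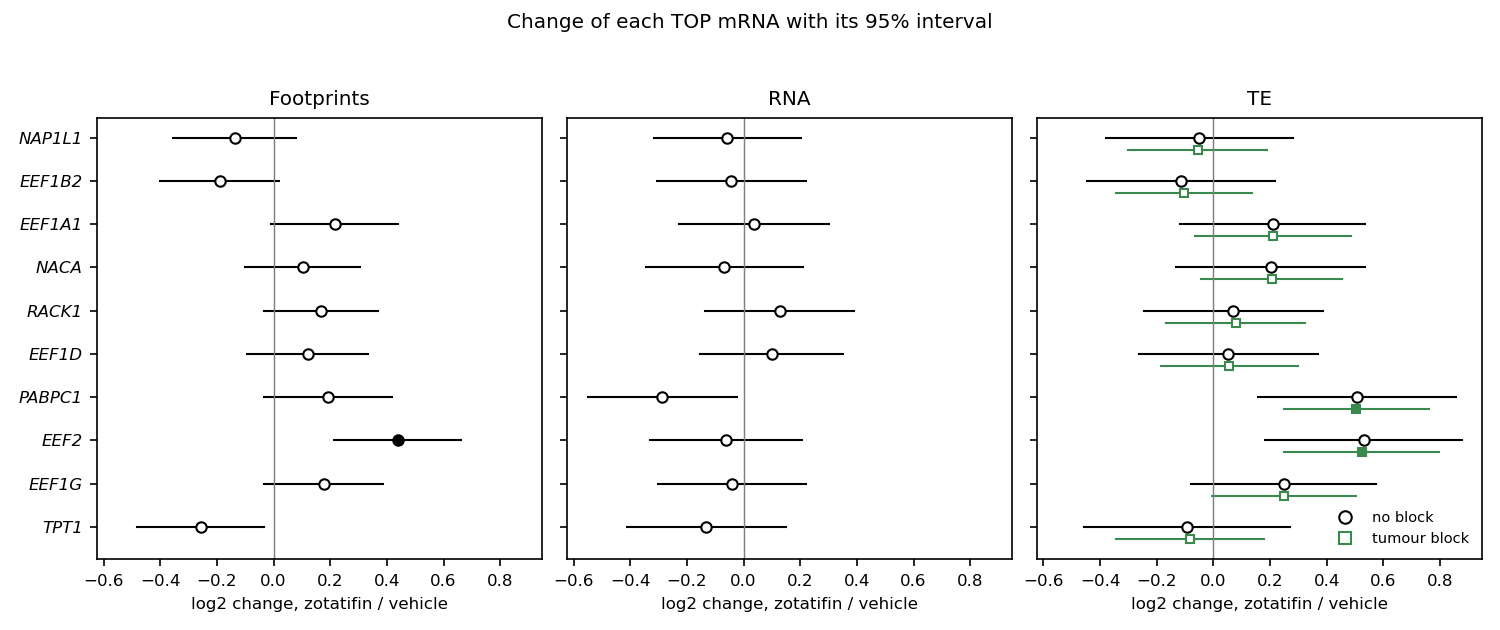
Log2 change with zotatifin over vehicle (x axes) of each TOP mRNA in footprints, RNA and TE, with 95% intervals from the edgeR fits; filled symbols have an adjusted p under 0.05, and green squares are TE with the tumour block. EEF2 is filled in footprints (0.44), EEF2 and PABPC1 are filled in TE with the block (0.52 and 0.50), and no member is filled in RNA.

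The authors' deposited table of TE changes called more members. Its estimates, read here as natural logs and turned to log2, were 0.60 for PABPC1, 0.48 for EEF2, 0.27 for EEF1G, 0.27 for NACA, 0.20 for EEF1A1 and 0.15 for RACK1, each with an FDR under the threshold in that table. For EEF1A1 the authors' deposited table gives an FDR of 3.7e-42 and for RACK1 one of 0.0029. Estimates for EEF1D (0.04), TPT1 (−0.02), NAP1L1 (−0.05) and EEF1B2 (−0.05) were not called in the authors' deposited table. The 6 called members stand against 18.3% of all 11446 genes called in it, 8.09% as rises. The edgeR estimates for the same 6 genes ran from 0.07 to 0.53, with standard errors of 0.15 to 0.17 over tumours. How the authors' model treats the spread between tumours is not given in the sources used here. In the authors' deposited RNA table no member was called, and the lowest adjusted p was that of PABPC1 (0.136).

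PABPC1 and NACA have near-identical copies in the tables, and how reads that match both were counted is not stated. PABPC3 and NACA2 are retrocopies of PABPC1 and NACA, without introns and known mainly from testis. PABPC3 held 25.3% ± 0.63 of the footprint counts of the PABPC1 and PABPC3 pair with vehicle and 24.5% ± 0.62 with zotatifin, but 4.44% ± 0.82 and 3.58% ± 0.14 of its RNA counts. NACA2 held 16.8% ± 0.76 and 17.7% ± 1.2 of the footprint counts of its pair, and 2.98% ± 0.48 and 3.36% ± 0.23 of the RNA counts (SD, n = 3). The division between gene and copy was thus unlike in the 2 assays, and the level of TE of PABPC1 and NACA, and of both copies, is uncertain. With the counts of each pair summed, the change of TE was 0.51 ± 0.17 for PABPC1 (edgeR adjusted p = 0.136; with the block 0.50, adjusted p = 0.0072) and 0.21 ± 0.16 for NACA (adjusted p = 0.570). RNA counted for PABPC3 fell by 0.62 on the log2 scale (SE 0.16, edgeR adjusted p = 0.0463), and the call did not hold when any 1 library other than vehicle library 2 was left out (adjusted p up to 0.25).

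The other paralogs went in different directions. EEF1A2, the form of the factor made in muscle, nerve and some tumours, had footprints of 59.0, 83.8 and 73.1 CPM with vehicle and 128, 129 and 92.5 CPM with zotatifin. The groups did not overlap, and the rise of 0.67 ± 0.15 passed the test (edgeR adjusted p = 0.0064), though not without vehicle library 1 (0.0911). Its RNA estimate was also positive (0.50 ± 0.16, edgeR adjusted p = 0.105). PABPC4, a relative of PABPC1 and itself reported as a TOP mRNA, had 128, 118 and 144 CPM with vehicle and 92.0, 61.3 and 84.7 CPM with zotatifin. Its footprints fell, by 0.68 on the log2 scale (SE 0.14, edgeR adjusted p = 0.0032), also without any 1 library, where PABPC1 had a positive estimate. NAP1L4 had a footprint change of 0.01 ± 0.13 (edgeR adjusted p = 0.987), and NACAD did not pass the filter in any comparison.

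Of 20 other mRNAs reported to have a TOP tract, 2 rose and 1 fell in footprints (3.22% and 3.92% of all genes). Their median was 0.01, and 0 of the 20 were called in RNA or TE. The rises were EIF4A2, a paralog of the drug's target (0.65 ± 0.13, edgeR adjusted p = 0.0032, also without any 1 library), and IMPDH2, which makes guanine nucleotides (0.33 ± 0.10, edgeR adjusted p = 0.0412, lost without any 1 library). RNA of EIF4A2 was also higher in every zotatifin library (131 to 147 CPM) than in any vehicle library (81.8 to 122 CPM). Its RNA change was 0.49 ± 0.14 (edgeR adjusted p = 0.0657) and its TE change 0.19 ± 0.20 (edgeR adjusted p = 0.705). PABPC4 was the fall. Of 22 regulators of TOP mRNAs and parts of the mTORC1 pathway, LARP1, MTOR and EIF4EBP1 among them, 0 changed in any of the 3 comparisons, with medians of −0.02, 0.03 and 0.00. Of 15 partners of the members, 0 rose and 3 fell in footprints, where 3.22% of all genes rose and 3.92% fell. SET, a histone chaperone of the NAP family, went from 1198, 1206 and 1178 CPM to 770, 623 and 819.5 CPM (−0.69 ± 0.11, edgeR adjusted p = 1.9e-04), also without any 1 library. PAIP2, which pulls PABPC1 off the poly(A) tail, went from 251, 253 and 225.6 CPM to 160, 131 and 168 CPM (−0.65 ± 0.12, edgeR adjusted p = 9.0e-04), also without any 1 library. The third was PAIP1, which joins PABPC1 to eIF4A (−0.40 ± 0.12, edgeR adjusted p = 0.0378), a call lost without any 1 library (up to 0.179).

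TE fell for SET (−0.83 ± 0.16, edgeR adjusted p = 0.0043) and PAIP2 (−0.75 ± 0.16, edgeR adjusted p = 0.0131), beside 1.22% of all genes. The call for SET held without any 1 tumour, and that for PAIP2 was lost without any 1 vehicle tumour (adjusted p up to 0.0908). Their RNA was not called (edgeR adjusted p = 0.484 and 0.630). RNA of SET measured 712 to 757 CPM with zotatifin against 609 to 690 CPM with vehicle, and RNA of PAIP2 116 to 139 CPM against 113 to 123 CPM.

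Among 22 other factors of elongation, termination and recycling tested in footprints, 3 rose and 2 fell (3.22% and 3.92% of all genes). Their median change was 0.09. EEF1A2 rose, as did GTPBP1, a GTPase related to elongation factors (0.67 ± 0.15, edgeR adjusted p = 0.0071; without vehicle library 1 0.0736), and DPH1, which starts the diphthamide modification of EEF2 (0.51 ± 0.15, edgeR adjusted p = 0.0387; lost without any 1 library but zotatifin library 3, up to 0.120). The falls were ETF1, the release factor that reads stop codons (−0.49 ± 0.11, edgeR adjusted p = 0.0069; up to 0.0724 without vehicle or zotatifin library 1), and ABCE1, which splits ribosomes after release (−0.35 ± 0.11, edgeR adjusted p = 0.0387; lost without any 1 library, up to 0.189). None of 22 changed in RNA. GTPBP1 was the 1 of 21 that rose in TE (0.85 ± 0.21, edgeR adjusted p = 0.0343), beside 0.476% of all genes. That call was lost without any 1 tumour but zotatifin tumour 3 (up to 0.174). Of 8 mitochondrial elongation factors, TUFM alone rose in footprints (0.37 ± 0.10, edgeR adjusted p = 0.0262), a call lost without any 1 of 4 libraries (vehicle 1 or 2, zotatifin 1 or 2; up to 0.142).

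The 5 other genes whose profile was closest to the mean profile of the members were NOP56, RPL14, CS, CDC7 and FLAD1. Closeness is the root-mean-square difference of log2 CPM over the 12 libraries, each gene centred within each assay, and was computed for the 4879 genes tested in TE whose mean count was 50 or more in both assays. It ran from 0.053 for NOP56 to 0.067 for FLAD1, against a median of 0.197 over all these genes. The 5 were picked as the closest, so lying below that median follows from the choice. Their footprint changes ran from −0.05 (CDC7) to 0.17 (FLAD1). The members themselves lay between 0.056 (EEF1G) and 0.152 (TPT1) from their own mean profile, with EEF2, PABPC1 and TPT1 the farthest.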

How the data were processed

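Groups were read from the titles. Per the labels, the treatment field goes against the titles of 6 samples (it separates footprints from RNA); the titles match the column names, whose code 226 was read as zotatifin. The authors deposited raw counts per transcript. Their RNA table gives a mean signal in normalised counts, a log2 change, a Wald score and a p-value, per the file headers. The authors' TE table gives an estimate, read as a natural log because over 1566 genes it had weights of 0.665 and −0.666 on the log2 footprint and RNA changes (the natural log of 2 is 0.693), and an FDR, an adjusted p-value. The submitters' processing notes name cutadapt 2.3, UMI-tools, Bowtie2 2.3.5, DESeq2 and hg38. The strand setting was not given in the sources.

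In R 4.3.3, edgeR 4.0.16 was run on the whole tables with filterByExpr (minimum count 10, minimum total 15), TMM, its quasi-likelihood F test (robust) and Benjamini-Hochberg adjustment over all genes tested; calls have an adjusted p under 0.05. TE was tested over genes passing in both assays. SE is the size of the log2 change over the root of F. Footprint and RNA libraries of 1 number and treatment deviated together (r = 0.217 to 0.440 in 6 pairs, 4889 genes), so the tumour served as a block. Other numbers gave −0.381 to 0.119. Centring on a mean of 3 libraries lowers these values where the same numbers go together, so they are no separate evidence. Vehicle and zotatifin libraries of the same number did not deviate together (−0.0941 to 0.182). If tumours were not from separate mice, p-values measure only the spread between these samples. Levels of different genes were not compared, since no coding lengths were used here.

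The members and lists were chosen with earlier results of these data known. Named from each list were its called genes (at most 4 by adjusted p), the members' paralogs and the 5 most alike genes; ABCE1 and DPH1 tie for the fourth place in their list, and both were named after their values were seen. A further prostate marker is not reported here. The code was tested on simulated data. Alternatives were other scalings (RLE, total counts, TMM without ribosomal proteins and members), no filter, DESeq2 1.42.0, blocks and leaving out libraries. Summed copies, the block without each tumour and leaving out both tumours 1 were chosen after seeing the data.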

Additional observations from a re-analysis of the deposited data

How the results depend on the processing

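Under other scalings, the calls of the 10 genes and the signs of their changes were as reported, and totals of called genes stayed within 1.5 times. DESeq2 called 434 genes in footprints (681 in edgeR) and 355 in RNA (225), and 1 of the 10 in TE. Without a filter on low counts 624 genes were called in RNA. A block on the replicate number gave 527 calls in RNA, although the numbers do not pair the treatments. In TE the block was the tumour, within its treatment, and gave 819 calls (160 without it), with 2 of the 10 among them. Neither block changed any other call of the 10. Of calls in TE 28.1% were rises, and 41.8% with the tumour block. Without ribosomal proteins in the total, the 10 genes took 1.43% ± 0.06 of footprint counts with vehicle and 1.59% ± 0.13 with zotatifin (SD, n = 3). Of RNA counts they took 3.06% ± 0.15 with vehicle and 3.03% ± 0.21 with zotatifin. Leaving out 1 library or tumour at a time gave 185 to 726 calls in footprints, 11 to 396 in RNA and 56 to 132 in TE, with 0 to 1 of the 10 called in footprints.

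Some changes turned sign, none of them called. In the full data the largest of these were NACA in TE (0.20) and TPT1 in RNA (−0.13). Leaving out 1 library, RNA ran from −0.0093 to 0.098 for EEF1A1, −0.14 to 0.032 for EEF1B2, −0.10 to 0.016 for EEF1G, −0.12 to 0.0036 for EEF2, −0.14 to 0.021 for NACA and −0.12 to 0.00034 for NAP1L1. TE ran from −0.044 to 0.12 for EEF1D, −0.040 to 0.16 for RACK1 and −0.20 to 0.049 for NAP1L1. With the tumour block, TE was −0.028 for EEF1D without vehicle tumour 1. Without zotatifin tumour 1 it was −0.041 for EEF1D and −0.034 for RACK1, and without zotatifin tumour 2 it was 0.050 for NAP1L1. Without both tumours numbered 1, RNA was 0.052 for EEF1B2, 0.052 for EEF1G, 0.029 for EEF2, 0.016 for TPT1, 0.11 for NACA and 0.054 for NAP1L1, and TE was −0.12 for EEF1D, −0.075 for RACK1 and −0.0022 for NACA (with the block −0.12 for EEF1D and −0.069 for RACK1). The cause was not tested. With 3 libraries a group, the 95% interval was wider than the change itself for each of the 10 genes in footprints, RNA and TE. It lay wholly above no change for EEF2 in footprints and for EEF2 and PABPC1 in TE. For TPT1 in footprints and PABPC1 in RNA it lay wholly below. A change that missed the threshold is not shown to be absent.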

Other observations

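Genes were also sorted by the start pattern alone (a C at the annotated start followed by at least 4 C or T), without regard to their values. Of 601 genes with the pattern tested in footprints, 15 rose (2.50%) and 16 fell (2.66%), with a median log2 change of 0.03. Of 7088 genes with an entry and no pattern, 171 rose (2.41%) and 278 fell (3.92%), with a median of −0.01. In TE, 2 rose and 6 fell of 599 with the pattern (median 0.00), and 31 rose and 83 fell of 7040 without it (median 0.01). In RNA, 4 rose and 2 fell of 775 with the pattern (median 0.05), and 80 rose and 91 fell of 9622 without it (median −0.01). After the members and the ribosomal proteins were taken out, 545 genes with the pattern were left in footprints, of which 11 rose and 16 fell (median 0.02). These are counts beside counts, and no test of the difference was made.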
